A study of Mus musculus with 13 samples.

Results

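Rhox1, Rhox5, Rhox6 and Rhox9 are members of the reproductive homeobox family, and their transcripts were followed across 12 libraries of male mouse primordial germ cells, from which sperm later form. They are 4 of the 35976 gene symbols in the count table, which lists 29 further Rhox symbols. The 4 genes were picked by name with earlier results in view, because Rhox5, Rhox6 and Rhox9 had higher counts in the mutants than in the wild type, so their levels against the wild type are given as a description and with no test. The germ cells were taken at E14.5, sorted by an Oct4-GFP reporter, which labels germ cells, and 5000 cells went into each RNA preparation, from which polyadenylated RNA was sequenced. The 4 Tet1 genotypes, with 3 libraries each, were KO, a knockout, HxD, known as an allele whose protein has no catalytic activity, V, known as an allele whose protein stalls at 5-hydroxymethylcytosine, and WT, the wild type. All groups share the age, the sex and the sort. The labels give neither the strain nor the exons removed in KO, and they do not say whether embryos were pooled.

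Rhox genes encode homeodomain proteins, which bind DNA, and lie in a tandem cluster on the mouse X chromosome that is expressed mainly in testis, epididymis, ovary and placenta. Rhox5, first described as Pem, is the founding member and is known from Sertoli cells, placenta and embryonic stem cells. Rhox6 and Rhox9, first described as Psx1 and Psx2, are close relatives known from placenta and fetal gonads, and Rhox1 is a less studied member at one end of the cluster. In somatic tissue, DNA methylation is known to silence Rhox genes. TET1 oxidises 5-methylcytosine in DNA, and its mutant alleles here bear on the question of what its catalytic activity contributes to reprogramming of the germ line.

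The 33 Rhox symbols of the table lie within 916163 bases of the X chromosome (GRCm38.p6, RefSeq positions). Rhox1 spans chrX:37213804-37222258 on the minus strand, with 883 exonic bases (GRCm38, GENCODE vM21, as for the next 3 genes). Rhox5 spans chrX:37804842-37808876 on the plus strand, with 754 exonic bases. Rhox6 spans chrX:37826910-37829857 on the plus strand, with 1010 exonic bases. Rhox9 spans chrX:37899097-37901770 on the minus strand, with 2488 exonic bases. None of the 4 overlapped another annotated gene. Rhox5, Rhox6 and Rhox9 lie close together, 147163 bases from the first to the last in the RefSeq positions, while 532349 bases separate Rhox1 from Rhox5. Rhox7a and Rhox8 lie between Rhox6 and Rhox9.

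Upstream sequence is shown for Rhox1 and Rhox5, because DNA methylation acts on CG pairs. Rhox1 lies at one end of the cluster, and Rhox5 was its most abundant gene. The RefSeq table of GRCm38.p6 held windows for 27 of the Rhox symbols, and Rhox6 and Rhox9 are named only. Capitals mark CCGGAA, the core bound by ETS factors, and GGCGGG, a GC box of the kind bound by Sp1, each searched on both strands. The 250 bases before the RefSeq start of Rhox5 (chrX:37754358-37754607, plus strand) and of Rhox1 (chrX:37222259-37222508, minus strand) read, 5′ to 3′:
Rhox5: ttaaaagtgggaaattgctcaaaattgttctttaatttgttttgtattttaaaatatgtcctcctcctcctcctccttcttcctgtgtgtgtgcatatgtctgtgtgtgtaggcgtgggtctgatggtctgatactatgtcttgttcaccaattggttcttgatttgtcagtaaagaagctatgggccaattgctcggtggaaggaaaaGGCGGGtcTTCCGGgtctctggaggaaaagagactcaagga
Rhox1: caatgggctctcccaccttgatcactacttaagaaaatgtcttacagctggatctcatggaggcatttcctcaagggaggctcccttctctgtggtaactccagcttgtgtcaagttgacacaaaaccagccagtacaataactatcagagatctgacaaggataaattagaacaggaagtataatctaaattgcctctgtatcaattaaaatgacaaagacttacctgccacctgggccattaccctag
The Rhox5 window held 4 CG pairs, with 1 GGCGGG starting at -41 and 1 CCGGAA, read as its reverse complement TTCCGG, starting at -33 relative to the gene start. The Rhox1 window held 0 CG pairs and neither motif. Among 32851 windows of the same length in the table the median was 6 CG pairs, with 44.4% at or below the count of Rhox5 and 7.87% at or below that of Rhox1. CCGGAA occurred in 12.03% of all windows, GGCGGG in 32.5% and both in 6.41%. Of the 25 other Rhox windows, 7 held CCGGAA, all of them Rhox2 copies, and 1 held GGCGGG, that of Rhox12. The RefSeq start of Rhox5 lies 50234 bases before the GENCODE start given above, and the counts do not show which start was used in these cells.

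Rhox5 was the most abundant Rhox transcript in every library. It stood at 395, 314 and 375 CPM in KO 1 to 3, at 316, 362 and 410 CPM in HxD 1 to 3, at 297, 366 and 196 CPM in V 1 to 3, and at 154, 232 and 198 CPM in WT 1 to 3 (CPM is the read count relative to the TMM-scaled size of the library). Every KO and every HxD library lay above every WT library, while V 3 lay within the WT range. The means were 361 ± 42.4 CPM in KO, 363 ± 47.2 in HxD, 286 ± 85.4 in V and 195 ± 39.1 in WT (SD, n = 3 each). The fitted log2 fold changes over WT were 0.89 in KO (SE 0.19), 0.90 in HxD (SE 0.19) and 0.56 in V (SE 0.19), which is 1.86-fold, 1.86-fold and 1.47-fold.

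Rhox9 was the second in abundance in every library. It stood at 217, 94.4 and 155 CPM in KO 1 to 3, at 129, 107 and 161 CPM in HxD 1 to 3, at 59.1, 129 and 67.0 CPM in V 1 to 3, and at 27.2, 75.8 and 55.1 CPM in WT 1 to 3. KO and HxD again lay wholly above WT, but in V the libraries V 1 and V 3 lay within the WT range and only V 2 above it. The means were 156 ± 61.1 CPM in KO, 133 ± 27.3 in HxD, 85.0 ± 38.2 in V and 52.7 ± 24.4 in WT (SD, n = 3 each). The log2 fold changes over WT were 1.56 in KO, 1.33 in HxD and 0.69 in V (SE 0.31 each), or 2.95-fold, 2.51-fold and 1.61-fold.

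Rhox6, the close relative of Rhox9, had the largest fold over WT of the 4 genes in each mutant and the largest relative spread in WT. It stood at 68.0, 45.9 and 69.7 CPM in KO 1 to 3, at 59.1, 51.3 and 77.9 CPM in HxD 1 to 3, at 26.4, 70.6 and 53.1 CPM in V 1 to 3, and at 18.0, 31.7 and 2.15 CPM in WT 1 to 3. The value of WT 3 rests on 49 counts and is far below the other WT libraries, while V 1 alone among the mutant libraries lay within the WT range. The means were 61.2 ± 13.3 CPM in KO, 62.8 ± 13.7 in HxD, 50.02 ± 22.3 in V and 17.3 ± 14.8 in WT (SD, n = 3 each). The log2 fold changes over WT were 1.82 in KO, 1.86 in HxD and 1.53 in V (SE 0.49 each), and they became 1.30, 1.33 and 1.01 without WT 3. Rhox9 without WT 3 had 1.59 in KO, 1.36 in HxD and 0.72 in V, so that the order of Rhox6 over Rhox9 in KO and HxD rested on WT 3.

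Rhox1 was the least abundant of the 4, and its KO and HxD libraries, unlike those of the others, did not lie above WT. It stood at 12.1, 13.2 and 12.1 CPM in KO 1 to 3, at 13.4, 8.47 and 8.27 CPM in HxD 1 to 3, at 20.4, 12.8 and 14.7 CPM in V 1 to 3, and at 14.1, 13.597 and 6.88 CPM in WT 1 to 3. KO and HxD both lay within the WT range, and V 1 and V 3 were above it. The means were 12.5 ± 0.639 CPM in KO, 10.04 ± 2.89 in HxD, 16.0 ± 3.996 in V and 11.5 ± 4.04 in WT (SD, n = 3 each). The log2 fold changes over WT were 0.11 in KO, -0.20 in HxD and 0.47 in V (SE 0.67 each), with 95% intervals of -1.26 to 1.48, -1.57 to 1.17 and -0.90 to 1.84. Without WT 3 they became -0.16 in KO, -0.47 in HxD and 0.20 in V, so that the sign in KO rested on WT 3.

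**Figure D1:**
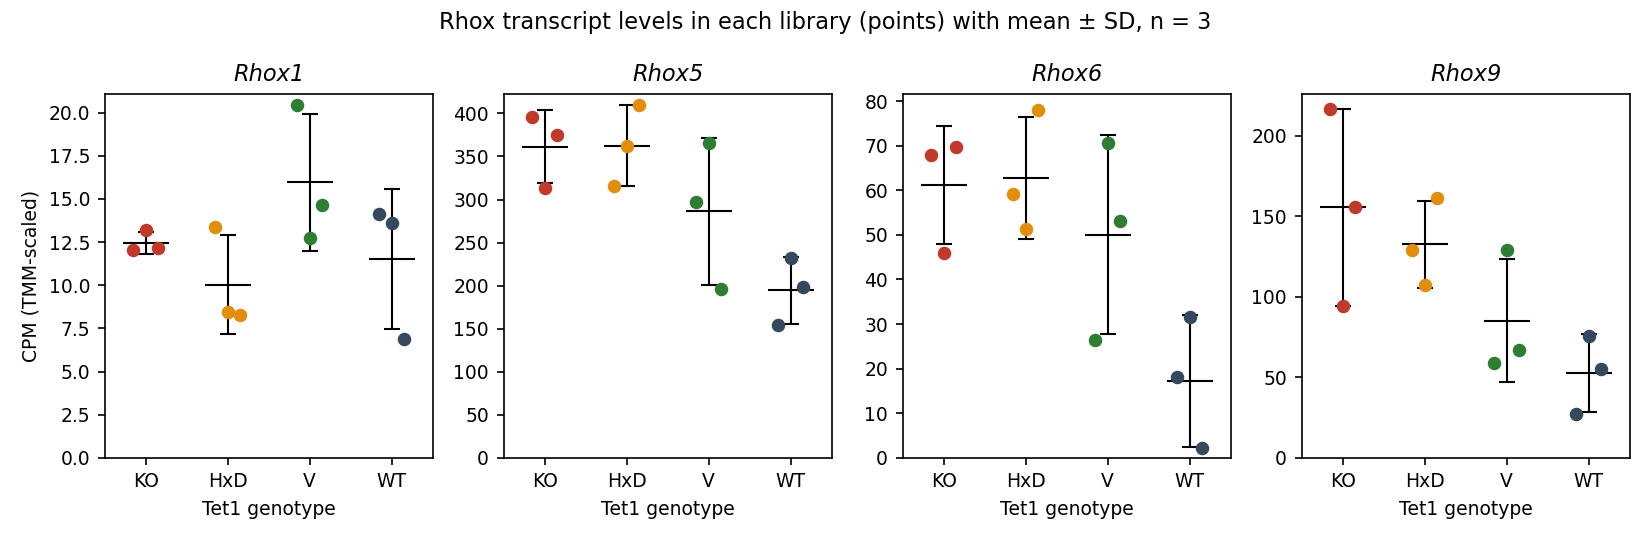
Level of Rhox1, Rhox5, Rhox6 and Rhox9 in CPM (vertical axes from 0, a scale for each gene) in the 3 libraries of each Tet1 genotype, as points, with mean and SD as bars. KO and HxD points lie above all WT points for Rhox5, Rhox6 and Rhox9, the V points reach into the WT range, and Rhox1 overlaps in KO and HxD.

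Taken by the rank of libraries alone, 3 of the 4 genes had all KO libraries above all WT libraries, as did 8.13% of the 14702 genes tested. The same 3 genes had all HxD libraries above WT, against 5.26% of all genes, and 0 of the 4 had all V libraries above WT, against 5.75%. The 3 genes were above WT in KO and HxD at once, against 2.13% of all genes, and 0 of the 4 were above WT in all 9 mutant libraries, against 0.789%. These counts restate the contrast that led to the choice of the genes, and the comparisons share the WT libraries. In libraries made from whole sorted fractions, fewer cells of a type and less RNA per cell cannot be told apart.

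In transcript level per kilobase of exon, Rhox5 led in every genotype, at 479 CPM per kilobase in KO, 481 in HxD, 380 in V and 258 in WT. Rhox9 had 62.5 CPM per kilobase in KO, 53.3 in HxD, 34.2 in V and 21.2 in WT. Rhox6 had 60.6 CPM per kilobase in KO, 62.2 in HxD, 49.5 in V and 17.1 in WT. Within libraries Rhox6 was above Rhox9 per kilobase in 2 of 3 KO, 3 of 3 HxD, 3 of 3 V and 2 of 3 WT libraries, the exceptions being KO 1 and WT 3. Rhox1 was lowest, at 14.1 CPM per kilobase in KO, 11.4 in HxD, 18.1 in V and 13.1 in WT. In WT its mean differed from that of Rhox6 by less than the spread between the libraries.

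The 4 genes together summed to 692, 467 and 612 CPM in KO 1 to 3, to 517, 529 and 658 CPM in HxD 1 to 3, to 403, 578 and 331 CPM in V 1 to 3, and to 213, 353 and 262 CPM in WT 1 to 3. V 3 was the only mutant library below the highest WT library. Rhox5 made up 61.8% of this sum in KO, 63.9% in HxD, 65.4% in V and 71.1% in WT, as means of 3 libraries. Rhox9 made up 25.6% in KO, 23.2% in HxD, 19.1% in V and 18.4% in WT. The ratio of Rhox9 to Rhox6 CPM lay between 1.26 and 3.19 in 11 libraries and was 25.7 in WT 3.

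The comparisons between mutants were not used to choose the genes, and they set an allele that makes a protein against one that does not, or a stalling protein against an inactive one. By edgeR's quasi-likelihood test with Benjamini-Hochberg adjustment over all 14702 genes, 0 of the 4 genes passed the threshold of 0.05 in any of these comparisons. Of all genes tested, 0.0068% passed in HxD against KO, 0.0204% in V against KO and 0% in V against HxD. Of the 12 combinations of gene and comparison, 2 had an unadjusted p under 0.05 and 0 passed by DESeq2. Over all genes the unadjusted share was 4.67% in HxD against KO, 4.10% in V against KO and 5.07% in V against HxD. Nothing in the labels tells separate animals from repeat libraries, so each p-value reflects the variation among these libraries alone, which could be technical. The fit also draws on the spread of other genes, so an edgeR p-value or interval does not rest on its own gene alone.

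Rhox5 and Rhox6 in HxD were close to their levels in KO, with log2 fold changes of 0.01 (95% interval -0.39 to 0.40) and 0.04 (-0.93 to 1.001), and with an adjusted p of 1 in edgeR for each. The interval of Rhox6 was wider than that of Rhox5. Rhox9 was lower in HxD than in KO by a log2 fold change of -0.23 (SE 0.31, 95% interval -0.85 to 0.39, edgeR adjusted p = 1). Rhox1 had a log2 fold change of -0.31 in HxD over KO (SE 0.67, interval -1.68 to 1.06, edgeR adjusted p = 1).

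Rhox9 had the smallest unadjusted p of the 4 genes in V against KO and in V against HxD. It averaged 85.0 ± 38.2 CPM in V and 156 ± 61.1 CPM in KO (SD, n = 3 each), a log2 fold change of -0.87 (SE 0.31, 95% interval -1.50 to -0.24) with an edgeR unadjusted p of 0.00805 and an adjusted p of 1. The libraries overlapped, since V 2 at 129 CPM was above KO 2 at 94.4 CPM. Against HxD the log2 fold change of Rhox9 in V was -0.64 (SE 0.31, interval -1.27 to -0.01), with an edgeR unadjusted p of 0.0454 and an adjusted p of 0.861. Without V 2 these values became -1.30 with an adjusted p of 0.0503 against KO and -1.07 with an adjusted p of 0.285 against HxD, so neither passed under that choice either.

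Rhox5 had a log2 fold change of -0.33 in V over KO (interval -0.73 to 0.06, edgeR adjusted p = 1) and of -0.34 in V over HxD (interval -0.73 to 0.05, adjusted p = 0.861). Rhox6 had -0.29 in V over KO (interval -1.26 to 0.68) and -0.33 in V over HxD (interval -1.30 to 0.64), with an edgeR adjusted p of 1 for each. Rhox1 went the other way, with 0.36 in V over KO (interval -1.01 to 1.73) and 0.67 in V over HxD (interval -0.71 to 2.04), again with an adjusted p of 1. None of these 3 genes passed the adjusted threshold of this test between V and the other mutants.

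**Figure D2:**
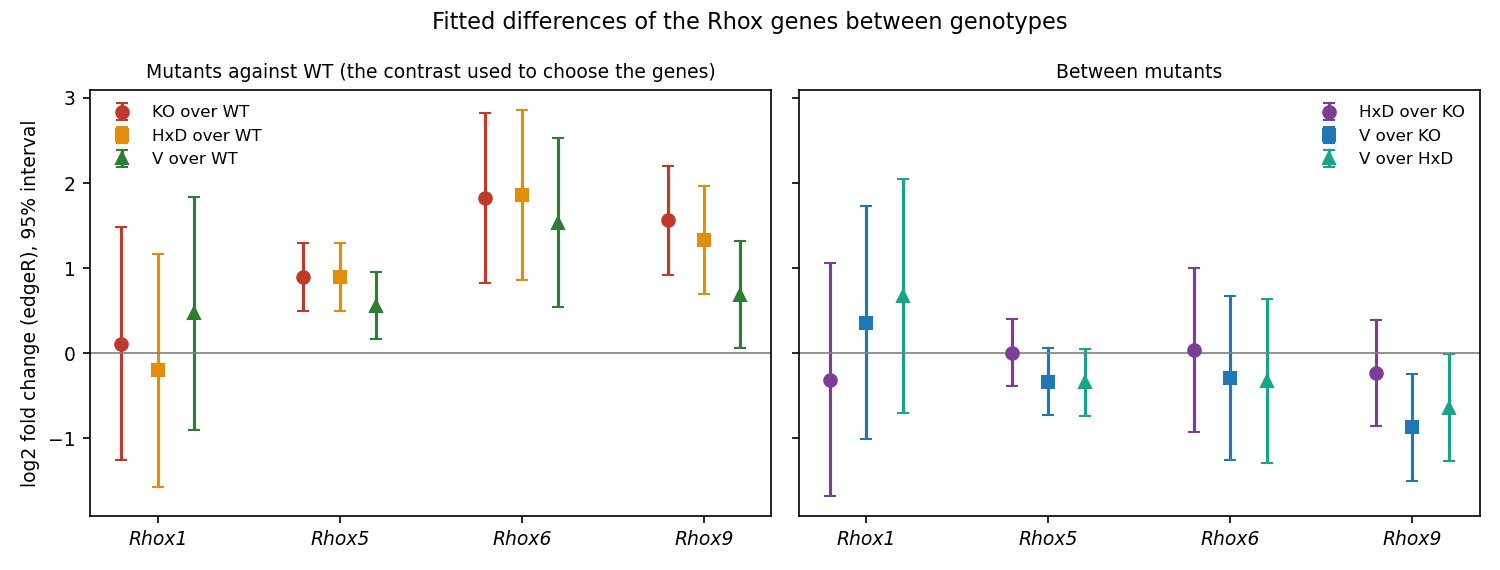
Fitted log2 fold changes (vertical axis, edgeR) of the 4 genes with 95% intervals, for each mutant over WT on the left and between mutants on the right. The left panel describes the contrast that led to the choice of the genes and is no test of it, and on the right only the intervals of Rhox9 in V lie below 0, with adjusted p of 1 and 0.861.

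Of the V libraries, V 2 had the highest Rhox5, Rhox6 and Rhox9 and also the highest summed level of Sertoli cell markers of all 12 libraries. The 13 Sertoli markers, among them Amh and Sox9, summed to 48.9 to 96.8 CPM in KO, 19.7 to 59.8 CPM in HxD, 28.4, 532 and 48.5 CPM in V 1 to 3, and 35.7, 27.3 and 187 CPM in WT 1 to 3. Rhox5 is known to be expressed in Sertoli cells, and the part of such cells in the level of V 2 was not tested. V 2 also had the highest macrophage marker sum, 28.0 CPM, and the highest Leydig sum, 38.6 CPM, close to 38.4 CPM in KO 2. Its interstitial marker sum, 1.81 CPM, was the lowest. Without V 2 the log2 fold changes of V over WT were 0.34 for Rhox5, 1.20 for Rhox6 and 0.26 for Rhox9, against 0.56, 1.53 and 0.69 with it. All KO libraries and HxD 2 and HxD 3 had higher Sertoli sums than WT 1 and WT 2, and all KO and HxD libraries had lower sums than WT 3. Of 8 trophoblast markers, the placental lineage in which Rhox genes are also expressed, 6 including Prl3d1 and Tpbpa had 0 counts in all libraries, and the sum was 2.05 to 15.5 CPM.

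Germ cell identity was clear in all libraries, with 12 germ cell markers such as Ddx4 and Dppa3 summing to 4310 to 4660 CPM in KO, 4193 to 5057 CPM in HxD, 4718 to 4915 CPM in V and 5429 to 5505 CPM in WT. Every mutant library lay below every WT library in this sum, and its part in the Rhox levels was not tested. The markers did not move together. Dazl had 720 to 1071 CPM in KO, 576 to 944 in HxD, 672 to 1172 in V and 1605 to 1906 in WT, while Tfap2c had 120 to 135 CPM in KO, 114 to 155 in HxD, 114 to 149 in V and 48.2 to 96.3 in WT. Of the 12, 1 passed edgeR's adjusted threshold in KO and in HxD against WT, Dazl, which was lower in both, and 0 in V. Over all genes tested, 0.218% passed in KO, 0.034% in HxD and 0% in V. Tet1 itself had 213 ± 11.8 CPM in KO, 626 ± 101 in HxD, 480 ± 133 in V and 608 ± 27.0 in WT (SD, n = 3 each), a log2 fold change of -1.51 in KO (edgeR adjusted p = 1.41e-05). Library totals were 13584484 to 29641963 counts. WT 3 stood apart, with the fewest genes detected (11529) and with 104 of the 9250 genes averaging at least 8 CPM at 0, against 36 in HxD 2, 33 in V 3 and 0 to 22 in the others.

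Outside the 4 genes, no single Rhox gene exceeded a mean of 3.799 CPM over the 12 libraries. Of the 29 other Rhox symbols, 13 had 0 counts in every library, 14 had at least 10 counts in total and 10 passed the filter for testing. The highest level of any of them was 11.4 CPM, Rhox2a in HxD 1. By edgeR, 0 of the 10 passed the adjusted threshold in any comparison, where 0.218% of all genes passed in KO against WT, 0.034% in HxD against WT and 0% in V against WT. The smallest adjusted p was 0.484 against WT and 0.884 between mutants. At an unadjusted p under 0.05 there was 1 against WT, Rhox2c in KO, and there were 2 between mutants, out of 30 combinations of gene and comparison each, where 6.05% to 8.30% of all genes against WT and 4.10% to 5.07% between mutants were under that limit. By DESeq2 0 passed. The 4 genes held from 87.5% (WT 3) to 97.999% (KO 2) of all Rhox CPM in a library.

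Copies of Rhox2, a subfamily multiplied in tandem in mouse, were the only other members seen in all 12 libraries, namely Rhox2a, Rhox2b and Rhox2h. The 8 Rhox2 genes together summed to 12.7, 7.61 and 11.99 CPM in KO 1 to 3, to 21.6, 12.4 and 36.2 CPM in HxD 1 to 3, to 11.1, 21.3 and 21.3 CPM in V 1 to 3, and to 7.52, 13.2 and 23.1 CPM in WT 1 to 3. The groups overlapped. Their means of 23.4 CPM in HxD, 17.9 in V and 14.6 in WT were above those of Rhox1 in the same genotypes, and their mean of 10.8 CPM in KO was below it. Rhox2c had 0 counts in all KO libraries, in HxD 2, V 3 and WT 1, but 213 counts in WT 3. Rhox3c, which shares exon sequence with Rhox2c in the annotation, had its 183 counts in WT 3 alone.

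The remaining members were sporadic. Rhox8, known from Sertoli cells, was highest in V 2 at 2.90 CPM, the library with the highest Sertoli marker sum. Rhox10, known for its role in forming spermatogonial stem cells, had 3.04 CPM in V 1 and 2.21 CPM in WT 1 and at most 0.564 CPM elsewhere. Rhox13, known from male germ cells, reached 2.50 CPM in WT 2 and had 0 counts in 9 libraries. Rhox7a reached 5.56 CPM in WT 3. Rhox2d, Rhox2f, Rhox2g, Rhox4c and Rhox4g each had 0 counts in some libraries and no library above 10.3 CPM.

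**Figure D3:**
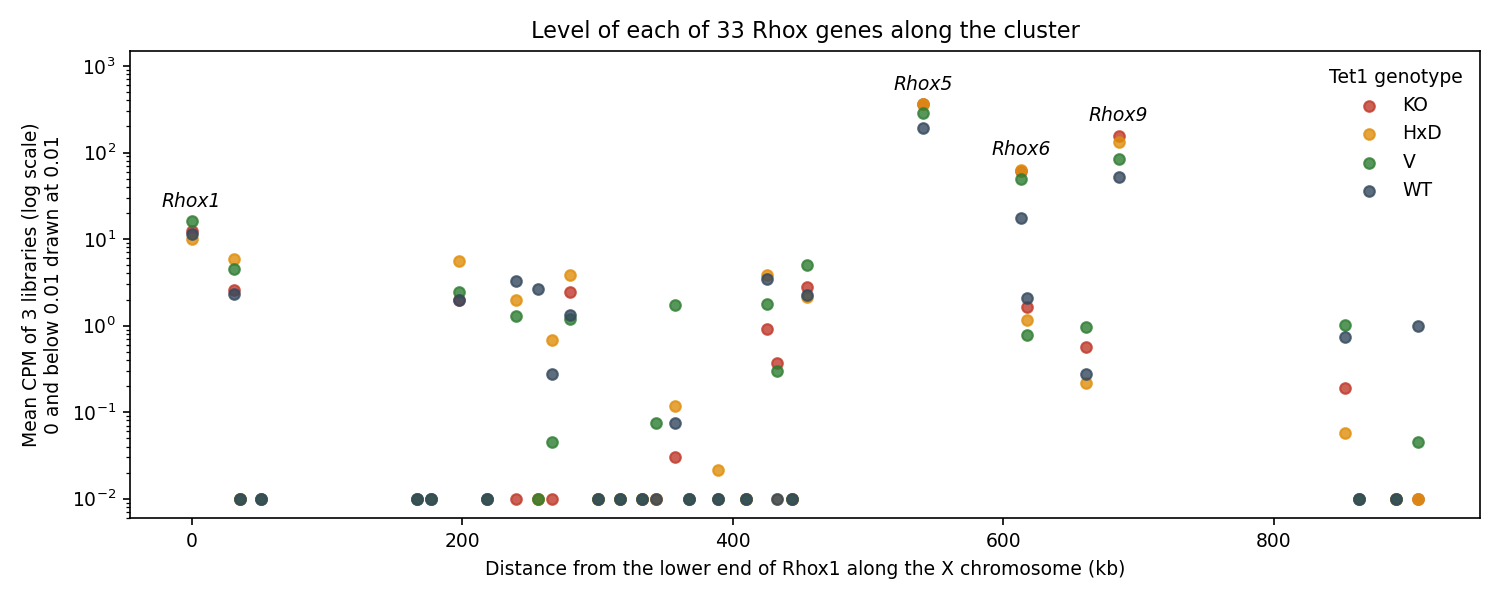
Mean CPM of 3 libraries (vertical log axis, values of 0 and below 0.01 drawn at 0.01) for each of the 33 Rhox genes against its distance along the X chromosome from Rhox1 (kilobases), coloured by Tet1 genotype. Rhox5, Rhox6 and Rhox9 rise from a narrow stretch of the cluster. The other genes except Rhox1 stay below 10 CPM, among them Rhox7a and Rhox8, which lie between Rhox6 and Rhox9.

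How firmly counts can be assigned differs within the family. In the GENCODE vM21 transcripts, 0 of 834 windows of 50 bases in Rhox1 and 0 of 705 in Rhox5 occurred in a transcript of another gene. Rhox6 and Rhox9 shared 159 windows of 50 bases with each other and none with other genes, which is 16.5% of the Rhox6 windows and 6.28% of the Rhox9 windows. At 100 bases they shared 62 windows, 6.81% of those of Rhox6 and 2.45% of those of Rhox9. The Rhox2 copies shared much more, from 44.6% of windows of 50 bases in Rhox2d to 91.1% in Rhox2a, so their separate counts are uncertain. How reads with several matches were counted is not given in the sources used here.

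**Figure D4:**
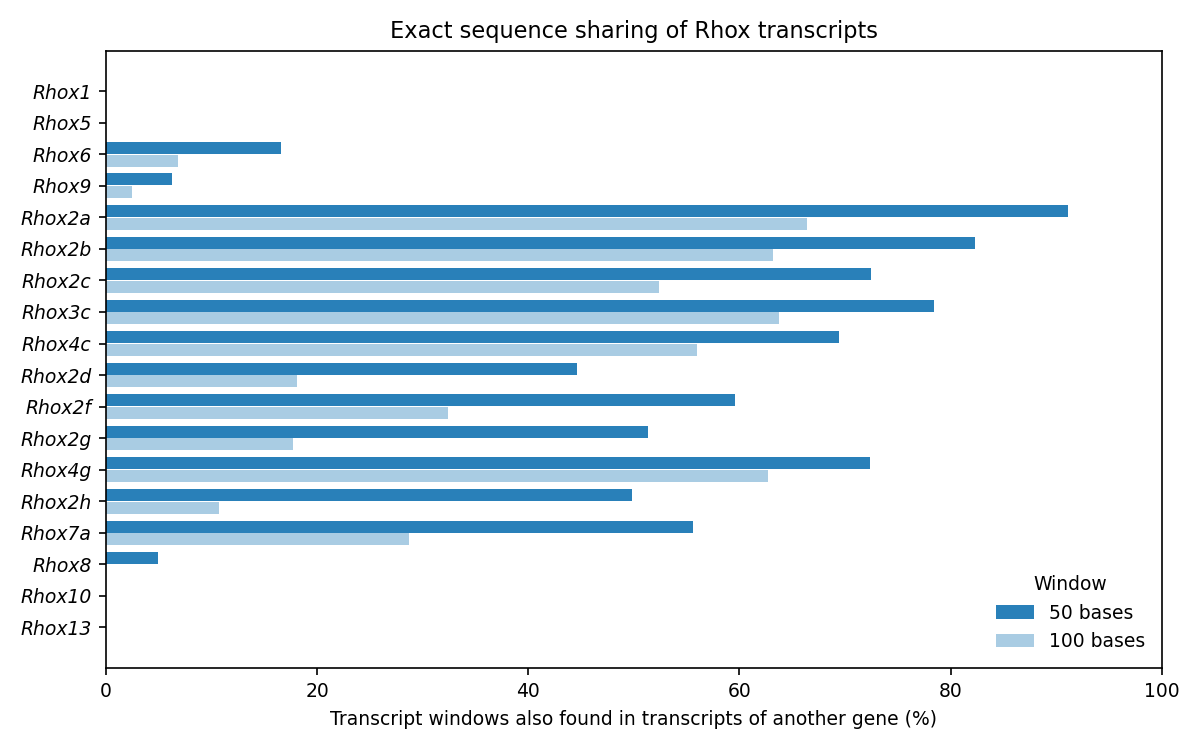
Share of windows (horizontal axis, percent) of 50 bases and of 100 bases in the transcripts of each Rhox gene that also occur in transcripts of another gene. Rhox1 and Rhox5 are at 0, Rhox6 and Rhox9 share up to 16.5% with each other, and the Rhox2 copies share from 44.6% to 91.1% at 50 bases.

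The levels of the 4 genes were also compared between libraries of the same genotype. Over the deviations of the 12 libraries from their genotype means in log2 CPM, Pearson's r of Rhox5 and Rhox9 was 0.76 (exact permutation within genotypes, two-sided, p = 0.0247, adjusted p = 0.148 over 6 pairs) and Spearman's rho was 0.81 (exact p = 0.0170, adjusted p = 0.102). The relation did not pass the adjustment. Its r was 0.77 without V 3 and WT 1, the libraries farthest from the median deviation of Rhox5, and 0.66 without V 2, a choice made after seeing the data. For Rhox6 and Rhox9 r was 0.24 (exact adjusted p = 0.813), and 0.34 without WT 2 and WT 3. For Rhox5 and Rhox6 r was 0.12 (exact adjusted p = 0.813), with 0.44 without V 3 and WT 1 and -0.018 without V 2. Rhox1 gave r of -0.27 with Rhox5, 0.48 with Rhox6 and -0.37 with Rhox9 (exact adjusted p = 0.712 each), and the value with Rhox6 became 0.07 without HxD 1 and WT 3.

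**Figure D5:**
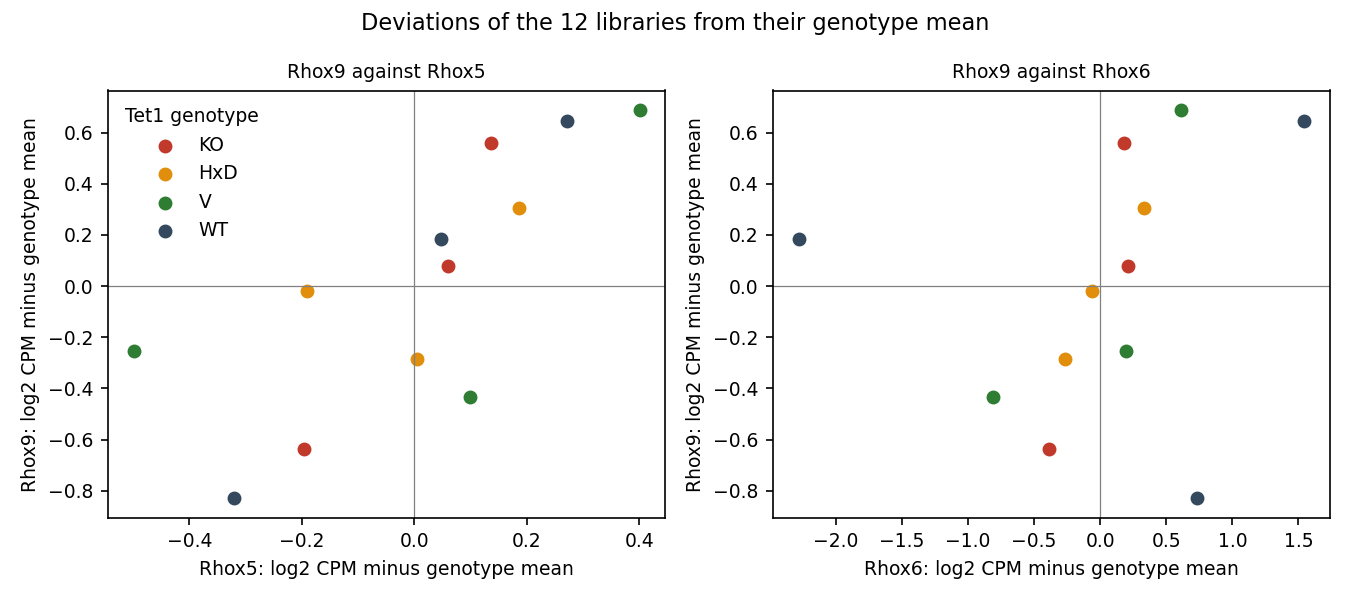
Deviation of each of the 12 libraries from its genotype mean in log2 CPM, for Rhox9 (vertical axis) against Rhox5 (left) and against Rhox6 (right), coloured by Tet1 genotype. For Rhox9 and Rhox5 r is 0.76, which did not pass the adjustment, while WT 3 at the far left and WT 1 at the lower right of the other panel lie apart (r = 0.24).

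Over all 12 libraries, genotype differences included, the genes most like each member were sought among 12844 genes by Pearson's r of log2 CPM, as a description. For Rhox5 they were Gng12, a G protein subunit, with r of 0.94, and Wbscr22, a ribosomal RNA methyltransferase, Adrb3, a beta-adrenergic receptor, Tcf7l1, a transcription factor of the Wnt pathway, and Cep135, a centriole protein, with 0.92 each. Rhox9 followed Rhox5 with r of 0.91, which includes the genotype differences for which both were picked, and 0.76 with genotype means removed. For Rhox9 they were Tmem2, Mir9-3hg and Hk1, a hexokinase, with 0.95 each, and Acadl, an enzyme of fatty acid oxidation, and Cep135 with 0.94 each. Gng12 averaged 42.5 CPM in KO, 53.2 in HxD, 29.98 in V and 15.5 in WT. Hk1 averaged 122 CPM in KO, 78.9 in HxD, 63.0 in V and 38.9 in WT.

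For Rhox6 the most alike were Notch1, a receptor of cell-to-cell signalling, with r of 0.98, Ttc5 with 0.97, and Shf, Relt and Phldb3 with 0.96 each. Notch1 averaged 55.1 CPM in KO, 40.4 in HxD, 29.3 in V and 9.74 in WT. Rhox6 had r of 0.65 with Rhox5 and 0.65 with Rhox9 over the 12 libraries, and 0.91 and 0.96 without WT 3 and V 3. These values include the genotype differences for which Rhox5, Rhox6 and Rhox9 were picked. With genotype means removed, r was 0.12 with Rhox5 and 0.24 with Rhox9. For Rhox1 they were Cks2, a subunit of cyclin-dependent kinases, with 0.93, Lrp4 with 0.92, Chac2 with 0.91, C1qtnf1 with 0.90 and Brsk2 with 0.89. By rank correlation 0 of the 5 genes remained among the 5 most alike for Rhox1 and Rhox6, 2 for Rhox5 and 3 for Rhox9.

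Genes known to silence Rhox genes or other germline genes were described beside them. Of 26 listed, 21 were in the table and 20 were tested. In the main edgeR fit, 0.218% of all genes passed in KO, 0.034% in HxD and 0% in V against WT. In this fit, with edgeR's default filter and genotype as its only term, 0 of the 20 passed the adjusted threshold in any mutant. Their median log2 fold change was -0.22 in KO, -0.13 in HxD and -0.10 in V, against 0.0026 in KO, -0.02 in HxD and 0.01 in V across the whole table. With no adjustment, at p under 0.05, 2 were higher and 5 lower in KO, 1 higher and 4 lower in HxD, and 0 higher and 4 lower in V, out of 20. Over all genes 8.30% were under that limit in KO, 8.24% in HxD and 6.05% in V, in either direction. The 2 higher in KO were L3mbtl2 and Hdac1, with log2 fold changes over WT of 0.50 and 0.54, against 5 lower. The 1 higher in HxD was Hdac1, with 0.52, against 4 lower. L3mbtl2 and Hdac1 were chosen for naming after their values were seen. Dnmt1, the maintenance DNA methyltransferase, had 705 ± 105 CPM in KO, 799 ± 114 in HxD, 751 ± 116 in V and 788 ± 89.5 in WT (SD, n = 3 each). Trim28, a co-repressor, had 1893 CPM in KO, 1974 in HxD, 1955 in V and 2089 in WT.

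DESeq2 gave other counts for this list, with 3 of its genes passing in KO against WT, where 1.70% of all genes with an adjusted p passed by DESeq2. They were Uhrf1, which guides DNA methyltransferase to replicated DNA, Mga, of a repressor complex at germline genes, and Dnmt3a, a de novo DNA methyltransferase, chosen for naming after their values were seen. Uhrf1 had 35.5, 70.1 and 43.6 CPM in KO 1 to 3, 71.4, 41.3 and 42.6 in HxD 1 to 3, 105, 54.4 and 93.95 in V 1 to 3, and 103, 117 and 124 in WT 1 to 3, with a log2 fold change of -1.21 in KO (edgeR adjusted p = 0.0712) and an adjusted p of 0.00495 by DESeq2. In HxD its log2 fold change was -1.15 (edgeR adjusted p = 0.193) and its DESeq2 adjusted p 0.0132, where 1.39% of genes passed by DESeq2. Mga had 184 ± 46.3 CPM in KO, 201 ± 49.4 in HxD, 212 ± 17.9 in V and 315 ± 13.8 in WT (SD, n = 3 each). For Mga all 9 mutant libraries lay below all WT libraries, a pattern whose share over all genes was not counted. Its edgeR adjusted p in KO against WT was 0.0830, and 0.00615 by DESeq2. Uhrf1 and Mga also passed in KO against WT in edgeR with no filter on low counts, where 0.745% of all genes passed, and with a replicate block, where 0.707% passed. In HxD against WT Uhrf1 passed in edgeR with no filter (adjusted p = 0.00601), where 0.337% of all genes passed. With the block in edgeR it passed there too (adjusted p = 0.0209), where 0.306% passed.

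Factors known to act at the Rhox5 promoters, which are ETS and Sp proteins, GATA4 and the androgen receptor, were measured for 7 genes. Of these 6 were tested and 0 passed in any mutant against WT, with 0 at an unadjusted p under 0.05. Over all genes 0% to 0.218% passed, and 6.05% to 8.30% were under the unadjusted limit. Gabpa, an ETS factor, had 143 CPM in KO, 135 in HxD, 144 in V and 156 in WT. Sp1, a factor binding GC boxes, had 226 CPM in KO, 271 in HxD, 250 in V and 286 in WT. Of 7 genes known to respond to Rhox5 in Sertoli cells, 2 were tested, Pparg and Rbp4, and neither passed 2.995 CPM in any library. Their group means were 0.677 CPM in KO, 1.39 in HxD, 0 in V and 0.267 in WT for Pparg, and 0.0157 CPM in KO, 0.668 in HxD, 0.226 in V and 0.958 in WT for Rbp4.

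Other homeobox genes of the germ line were few, with 6 of 16 tested and 0 passing in the main edgeR fit in any mutant against WT. Of all genes, 0.218% passed in KO, 0.034% in HxD and 0% in V in that fit. Pou5f1, the pluripotency factor whose regulatory sequence drives the sorting reporter, had 357 ± 37.2 CPM in KO, 464 ± 81.8 in HxD, 516 ± 81.5 in V and 316 ± 22.6 in WT (SD, n = 3 each). It passed by DESeq2 in HxD and V, with an adjusted p of 0.0310 and 0.00231, but not in the main edgeR fit, with 0.345 and 0.293. DESeq2 called 1.39% of all genes with an adjusted p in HxD against WT and 0.597% in V against WT. In edgeR with no filter on low counts Pou5f1 passed in V (adjusted p = 0.0407), where 0.161% of all genes passed. Nanog, another pluripotency factor, had 164 CPM in KO, 187 in HxD, 148 in V and 145 in WT. Median log2 fold changes of the 6 were -0.24 in KO, 0.46 in HxD and 0.33 in V, against 0.0026, -0.02 and 0.01 over all genes.

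X-linked genes around the cluster and X-linked germline genes elsewhere were also compared. In neither list did a gene pass in a mutant against WT in the main edgeR fit, where 0% to 0.218% of all genes passed. Of the 20 nearest named neighbours, 10 on each side, 19 were in the table and 12 were tested. Their median log2 fold changes were -0.10 in KO, -0.10 in HxD and 0.13 in V, against 0.0026, -0.02 and 0.01 over all genes. Before the cluster, the nearest tested neighbour, Rnf113a1, had 3.03 CPM in KO, 3.46 in HxD, 8.001 in V and 3.53 in WT. The nearest after it, Zbtb33, which encodes the methyl-CpG binding protein Kaiso, had 41.4 CPM in KO, 33.4 in HxD, 32.5 in V and 45.2 in WT. Cul4b, a ubiquitin ligase scaffold a little farther off, had 466 CPM in KO, 549 in HxD, 508 in V and 521 in WT. Rpl39, a ribosomal protein gene, had 101 CPM in KO, 120 in HxD, 129 in V and 94.0 in WT.

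Of 27 X-linked germline genes 16 were tested, and their median log2 fold changes were -0.29 in KO, -0.66 in HxD and -0.48 in V. At an unadjusted p under 0.05, 0 were higher in any mutant, and 2 of the 16 were lower in each, where 8.30% of all genes in KO, 8.24% in HxD and 6.05% in V were under that limit. Usp26, a deubiquitinase of male germ cells, had 29.4 ± 14.4 CPM in KO, 43.9 ± 5.08 in HxD, 42.4 ± 21.1 in V and 80.9 ± 28.0 in WT (SD, n = 3 each), with a log2 fold change of -1.46 in KO (SE 0.36, edgeR adjusted p = 0.0881, and 0.0107 by DESeq2). In KO against WT, Usp26 also passed in edgeR with no filter on low counts (adjusted p = 0.00107), where 0.745% of all genes passed. With a replicate block in edgeR it passed too (adjusted p = 0.00581), where 0.707% passed. Tex11, a meiosis gene, had 42.3 CPM in KO, 41.8 in HxD, 48.7 in V and 71.6 in WT.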

How the data were processed

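Polyadenylated RNA of 12 libraries, 3 for each of 4 Tet1 genotypes, was analysed from whole-number counts per gene, which the authors deposited without normalization. The submitters' processing notes list featureCounts 2.0.3, STAR 2.7.10b, Trim Galore 0.6.7, FastQC and SAMtools 1.9. The notes name GRCm39 and mm10 with no role, and annotation, strand and the treatment of reads with several matches were not given in the sources used here. The labels list 13 samples, and WT 4 was not analysed here. A further 1 column that names no sample was not used.

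Genes were filtered with edgeR's default, leaving 14702, and scaled by TMM. A quasi-likelihood fit (edgeR 4.0.16, R 4.3.3) to all 12 libraries had genotype as its only term, two-sided tests and Benjamini-Hochberg adjustment over all genes at 0.05. The planned design had included WT 4. The common biological coefficient of variation was 0.932. Intervals are 95% and come from the fit. DESeq2 1.42.0 was an alternative. Depth was 13584484 to 29641963 counts, and no libraries were identical. The members and lists were chosen with earlier results of these data known. Named genes were the members, other Rhox genes with at least 10 counts, the 5 most alike genes per member, the 2 most abundant genes per list without a call, the nearest neighbours and Tet1. Gene models came from GENCODE vM21 and promoters from RefSeq GRCm38.p6. The fit was checked on simulated data.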

Additional observations from a re-analysis of the deposited data

How the results depend on the processing

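The fold changes of the 4 genes over WT moved by less than the spread between replicates under every alternative run. Over these the log2 fold change over WT of Rhox5 was 0.75 to 1.04 in KO, 0.75 to 1.04 in HxD and 0.34 to 0.78 in V, that of Rhox6 was 1.30 to 2.60 in KO, 1.33 to 2.64 in HxD and 0.96 to 2.31 in V, and that of Rhox9 was 1.24 to 1.92 in KO, 1.02 to 1.68 in HxD and 0.26 to 1.05 in V. Rhox1 was -0.16 to 0.28 in KO, -0.47 to -0.029 in HxD and 0.20 to 0.64 in V, and its sign in KO turned without WT 3 (-0.16) and without WT 3 and V 3 together (-0.16). No member passed between mutants and no other Rhox gene passed anywhere. Differences near 0 between mutants also turned sign, as did the within-genotype r of Rhox5 and Rhox6 without V 2 (-0.018). Leaving out a library in turn, HxD over KO was -0.089 to 0.095 for Rhox5, -0.14 to 0.16 for Rhox6 and -0.49 to 0.083 for Rhox9, and V over KO was -0.63 to 0.021 for Rhox6. Over all genes tested, same-numbered libraries of different genotypes did not deviate together (correlations of -0.065 to 0.088 over 18 pairs). Such correlations cannot settle whether the numbers pair the libraries for some genes. A replicate block gave -0.0037 for Rhox5 in HxD over KO. Rhox6 in WT 3 rests on 49 counts, which limits its fold.

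The number of genes called among all genes tested depended on the setting, and the cause was not tested. For KO against WT (32 called) it was 239 with DESeq2, 148 with no filter, 15 with a stricter filter, 12 with only these genotypes fitted, 11 without WT 3 and V 3, 104 with the replicate block and 15 to 127 leaving out a library. For HxD against WT (5) it was 199, 67, 1, 2, 2, 45 and 1 to 47 in the same order. For V against WT (0) it was 84 with DESeq2, 32 with no filter, 8 with the block and 0 to 10 leaving out a library. For HxD against KO (1) these were 89, 8, 8 and 1 to 14, and for V against HxD (0) they were 92, 5, 2 and 0 to 11. For V against KO (3) they were 61, 21, 16 and 2 to 18, with 0 without WT 3 and V 3 and 0 with only these genotypes fitted. Among the fixed lists (0 called in each), KO against WT gave 4 with DESeq2, 3 with no filter, 3 with the block and 0 to 3 leaving out a library. HxD against WT gave 2, 1, 1 and 0 to 1, and V against WT gave 1 with DESeq2 and 1 with no filter. Of the 5 most alike genes, rank correlation kept 0 for Rhox1, 2 for Rhox5, 0 for Rhox6 and 3 for Rhox9, and leaving out WT 3 and V 3 kept 1, 0, 0 and 2.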
